A study of Homo sapiens with 8 samples.

Results

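The genes described here are the matrix metalloproteinases (MMP), the ADAM and ADAMTS metalloproteinases, the ADAMTS-like proteins (ADAMTSL) and the tissue inhibitors of metalloproteinases (TIMP) of Hs578T breast cancer cells. They were taken by gene symbol from a table of 21077 genes, which gave 59 members: 18 MMP, 14 ADAM, 18 ADAMTS, 5 ADAMTSL and 4 TIMP genes. RNA-Seq was done after 48 hours of culture with 25 mM glucose (high glucose, standing for hyperglycemia) or 5 mM glucose (low glucose), with 4 libraries per group and 8 in all. Hs578T is an established estrogen receptor-negative line with mesenchymal features. According to the methods of the study, cells were conditioned in low glucose and both media were free of serum, and an osmotic control was used in some experiments only. The labels name none for these libraries, so glucose and osmolarity cannot be told apart here, and a change in every cell cannot be told apart from a change in the mix of cells within the culture.

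MMPs are zinc-dependent enzymes, secreted or bound to the membrane, that cut collagens, proteoglycans and other matrix proteins. ADAMs are membrane proteins, many of which shed growth factors, cytokines and receptors from the cell surface, and ADAMTS enzymes are secreted and cut proteoglycans, procollagens and other matrix molecules. ADAMTSL proteins look like the non-catalytic end of ADAMTS enzymes and have no protease domain, and TIMPs bind the active site of these proteases and block it. In breast cancer these families are known for their part in invasion and in the release of epidermal growth factor receptor ligands.

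Most of the measured proteases were higher and 2 of the 3 measured inhibitors were lower in high glucose. Values are normalized signal as CPM (counts scaled by library size), and 42 members reached at least 0.5 CPM in at least 2 libraries and were tested, while 17 did not. Of the 42, 23 rose and 12 fell at a Benjamini-Hochberg false discovery rate (FDR) of 0.05 in limma. Among these, ADAMTS9, ADAM32 and MMP25 met the filter only through high-glucose libraries and MMP10 only through low-glucose libraries. For these members the filter itself favors the direction of the call. Among all 15570 genes tested 35.7% rose and 37.2% fell (72.9% in either direction). A change of at least 2-fold on the log2(CPM + 1) scale was seen for 14 rising and 3 falling members, against 8.57% and 8.48% of all genes. The median log2 fold change, high minus low glucose, was 0.36 over the members and 0.00 over all genes. By family, 8 ADAM genes rose and 2 fell among 11 tested, 8 ADAMTS genes rose and 2 fell among 13, 6 MMP genes rose and 4 fell among 12, 2 ADAMTSL genes fell among 3, and 1 TIMP gene rose and 2 fell among 3. The high-glucose and low-glucose libraries did not overlap for 32 of the 42 members, against 66.7% of all genes. These counts are a description, and no test of the families as sets was run.

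**Figure D1:**
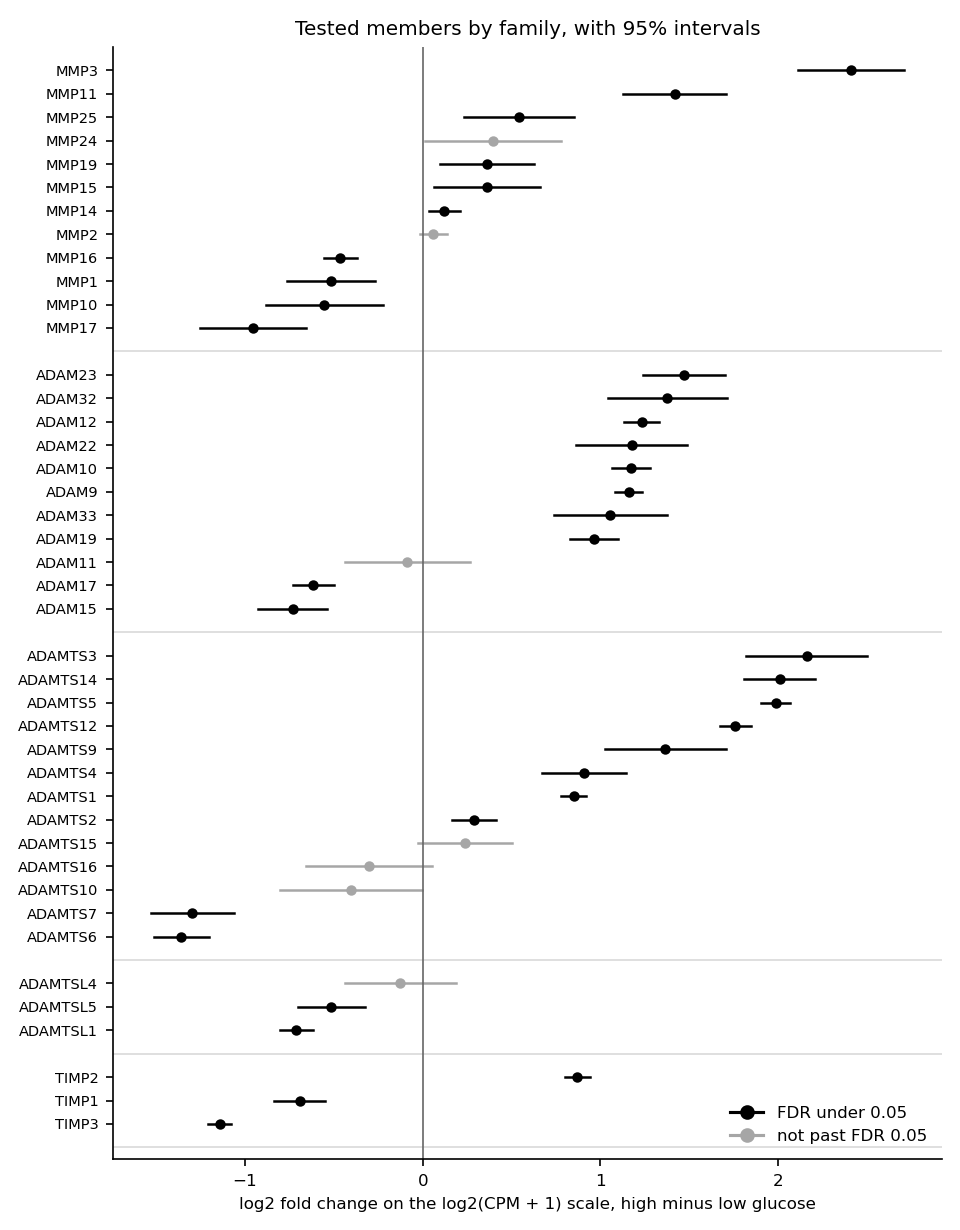
Log2 fold change on the log2(CPM + 1) scale (x axis, high minus low glucose) of the 42 tested members by family, with the 95% interval as a line, and members past an FDR of 0.05 in black. The values run from 2.41 for MMP3 to -1.36 for ADAMTS6, and ADAMTS genes lie on both sides of 0.

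The 8 libraries held an estimated 10244900 to 11956677 counts each, at which 1 count is 0.0867 to 0.118 CPM. The columns sum to 1017015 to 1036274 in high and 1205567 to 1229021 in low glucose, so the balance of rises and falls rests on the scaling of the deposited table. With each library set to the same total, the median over all genes shifted by 0.20 (log2), and 26 of 41 members were higher and 11 lower, against 7306 higher and 4337 lower of all 15378 genes then tested. The estrogen receptor ESR1 was at most 0.270 CPM and the epithelial adhesion gene EPCAM was at 0 in all libraries. Of the other luminal or epithelial markers, PGR and CDH1 were at most 0.200 and 0.902 CPM in any library. ERBB2 of the same list was at 45.6 to 49.1 CPM in high and 37.1 to 42.9 CPM in low glucose, and passed as higher (log2 fold change 0.23, limma adjusted p = 0.00242). The mesenchymal filament gene VIM was at 3567 to 3909 CPM in high and 8269 to 8581 CPM in low glucose. All 4 mesenchymal markers examined fell, as did 37.2% of all genes. Of the markers of other cell types, the endothelial list was higher in high glucose, at a summed 7.12 to 8.58 CPM against 2.12 to 2.77 CPM. Of its 4 genes 3 rose, against 35.7% of all genes, and CDH5 was at 0. Most of the sum was PECAM1, at means of 5.80 CPM in high and 2.05 CPM in low glucose. VWF and KDR were at most 0.332 and 0.325 CPM in any low-glucose library. They met the filter only through high glucose, which favors the direction of their calls. The immune list summed to 92.9 to 98.2 CPM in high and 180.4 to 189 CPM in low glucose, almost all of it from the lysosomal gene CD68, with PTPRC at 1.08 CPM or less, and the adipocyte gene PLIN1 reached at most 0.191 CPM. The part of these markers in the results on the proteases was not tested.

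The promoters of 21 of the 35 called members were in the RefSeq table of GRCh38.p14 and were searched over the 250 bases before the gene start. The motifs, on both strands, were the AP-1 element TGANTCA, known from several MMP promoters, the E-box CACGTG, which glucose-sensing factors can bind, and the ATF4 composite element TGATGNAA of the stress response. AP-1 letters stood before 1 of 12 rising members (ADAMTS12) and 1 of 9 falling members (MMP10), against 6.57% of all 35116 promoters in the table. E-box letters stood before ADAM10, which rose, and ADAMTS6, which fell, against 6.34% of all promoters, and the ATF4 letters before ADAMTSL1, which fell, against 3.14%. The 4 promoters with AP-1 or E-box letters are shown because members with the same letters moved in opposite directions. Each line is the 150 bases before the gene start, 5′ to 3′ on the strand of the gene, with the motif in capitals. ADAMTS12 lies at chr5:33891991-33892140, MMP10 at chr11:102780629-102780778, ADAM10 at chr15:58749708-58749857 and ADAMTS6 at chr5:65481921-65482070, all on the minus strand.
ADAMTS12: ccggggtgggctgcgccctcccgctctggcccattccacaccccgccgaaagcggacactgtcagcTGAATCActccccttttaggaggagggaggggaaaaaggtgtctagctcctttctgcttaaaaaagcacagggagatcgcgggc
MMP10: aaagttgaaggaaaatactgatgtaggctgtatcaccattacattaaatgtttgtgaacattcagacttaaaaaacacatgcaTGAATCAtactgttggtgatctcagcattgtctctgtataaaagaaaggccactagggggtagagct
ADAM10: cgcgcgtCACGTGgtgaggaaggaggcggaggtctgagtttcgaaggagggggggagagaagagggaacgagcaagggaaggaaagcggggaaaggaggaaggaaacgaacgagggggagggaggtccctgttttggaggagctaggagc
ADAMTS6: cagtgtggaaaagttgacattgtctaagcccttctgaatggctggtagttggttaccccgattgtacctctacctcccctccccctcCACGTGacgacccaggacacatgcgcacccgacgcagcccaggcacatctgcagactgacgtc
A match of letters is not a bound site, and no match says only that these letters are not in this window.

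The stromelysins, which cut proteoglycans and can activate other MMPs, held both the largest MMP rise and an MMP near the limit of detection. MMP3 (stromelysin 1, chromosome 11 from 102835801 to 102843609 of hg38) had 9.19, 8.72, 10.9 and 9.28 CPM in high-glucose libraries, against 0.885, 0.675, 1.08 and 1.30 CPM in low-glucose libraries. The groups were far apart, and MMP3 averaged 9.52 ± 0.942 CPM in high and 0.985 ± 0.267 CPM in low glucose (SD, n = 4 each; 9.66-fold higher). Its log2 fold change was 2.41 ± 0.140 (SE, limma adjusted p = 3.67e-10), a value that was 3.18 with a pseudocount of 0.1 CPM and 1.28 with 5 CPM, since it rests on 6 to 11 counts per low-glucose library. MMP11 (stromelysin 3), which unlike most secreted MMPs is activated inside the cell by furin, had 13.3, 11.2, 9.26 and 9.01 CPM in high glucose, against 3.21, 3.82, 3.03 and 3.30 CPM in low glucose. It rose without overlap (log2 fold change 1.42 ± 0.135, adjusted p = 1.36e-07). MMP10 (stromelysin 2) had 2 counts in high-glucose replicate 1 and 0 in the other 3, against 4, 3, 5 and 7 counts in the low-glucose libraries. It passed as lower (adjusted p = 0.00449), but the size of a change at so few counts depends on the pseudocount, with log2 fold changes of -2.25 to -0.13 over the alternatives.

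The collagenase MMP1, which opens fibrillar collagen, lies next to MMP3 and MMP10 on chromosome 11, from 102789919 to 102798160, and fell. MMP1 had 10.1, 11.0, 7.83 and 9.10 CPM in high glucose, against 14.2, 16.2, 13.0 and 12.6 CPM in low glucose. All 4 high-glucose libraries were below all 4 low-glucose libraries (log2 fold change -0.51 ± 0.116, adjusted p = 9.38e-04). Of these neighbours MMP3 therefore rose and MMP1 and MMP10 fell. Per kilobase of transcript, the ratio of MMP3 to MMP1 within a library was 0.856 to 1.504 in high and 0.0451 to 0.111 in low glucose, 14.1-fold higher on average. The collagenase MMP13 and the matrilysin MMP7 on the same chromosome did not reach the filter, with at most 3 counts in any library. The gelatinase MMP9 was not among the 21077 genes by symbol, so it has no value here.

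The most abundant MMPs of these cells moved little on the deposited scale. MMP14, the membrane-type enzyme that activates the gelatinase MMP2 at the cell surface, had 653, 652, 626 and 580.4 CPM in high glucose, against 577, 596, 561 and 572 CPM in low glucose. The groups overlapped, and a rise of 0.12 ± 0.0401 on the log2 scale passed (adjusted p = 0.0128), but not without a trend in the variance prior (adjusted p = 0.0725, with 1.51e-07 to 0.0725 over all alternatives). MMP14 was higher by 0.37 with each library set to the same total and 0.41 with quantile normalization. MMP2 had 549, 521, 522 and 491 CPM in high glucose, against 502, 501, 495 and 498 CPM in low glucose. Its difference of 0.06 (95% interval -0.02 to 0.14, adjusted p = 0.142) was within the spread of the high-glucose libraries. MMP2 passed as higher with each library set to the same total (0.30), with quantile normalization (0.32) and without high-glucose replicate 4 (0.09), with adjusted p of 2.16e-07 to 0.389 over all alternatives. Per kilobase of transcript MMP14 stood at 169.7 ± 9.20 CPM in high and 156 ± 3.90 CPM in low glucose and MMP2 at 148 ± 6.66 and 142 ± 0.945 CPM, while the next MMP, MMP16, stood at 19.2 ± 0.968 and 26.5 ± 1.17 CPM, in the same order of groups.

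The other membrane-type MMPs moved both ways. MMP16 fell to 222 ± 11.2 CPM in high glucose, against 306 ± 13.6 CPM in low glucose (log2 fold change -0.46, adjusted p = 1.18e-07), and MMP17, which is held by a lipid anchor, fell to 4.15 ± 0.693 CPM, against 8.998 ± 1.55 CPM (-0.95, adjusted p = 1.75e-05). MMP15 averaged 8.27 ± 0.781 CPM in high and 6.30 ± 1.498 CPM in low glucose, with overlap, and its rise (0.36, adjusted p = 0.0299) was lost in 6 of 16 alternatives, among them leaving out any 1 of low-glucose replicates 2, 3 and 4 or high-glucose replicates 2 and 3 (adjusted p = 0.0631, 0.0784, 0.0869, 0.0713 and 0.0752). MMP19, a secreted enzyme of basement membrane, averaged 7.30 ± 0.895 CPM in high and 5.46 ± 0.644 CPM in low glucose, also with overlap, and its rise (0.36, adjusted p = 0.0169) was lost without high-glucose replicate 3 (adjusted p = 0.0596). The overlapping pseudogene TMEM198B also rose, with means of 5.59 CPM in high and 1.77 CPM in low glucose (1.24, adjusted p = 3.63e-06). MMP25 passed as higher at under 1 CPM and met the filter only through high glucose. MMP24 did not pass at 0.819 ± 0.0198 and 0.417 ± 0.370 CPM in high and low glucose (adjusted p = 0.0581). MMP24 did pass as higher with no filter (adjusted p = 0.0477), with each library set to the same total (0.0211) and without low-glucose replicate 4 (0.0118), with adjusted p of up to 0.311 over all alternatives. MMP24 and MMP25 overlap antisense or opposite-strand genes that were at least as abundant in CPM, and whether reads were counted by strand is not known here, so their values can hold reads of those genes. Of the 6 membrane-type genes, 3 (MMP14, MMP15 and MMP25) thus passed as higher, against 35.7% of all genes. The 2 that fell were MMP16 and MMP17, against 37.2% of all genes. The groups overlapped for MMP14, MMP15 and MMP24 and did not for MMP16, MMP17 and MMP25, the last at under 1 CPM.

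**Figure D2:**
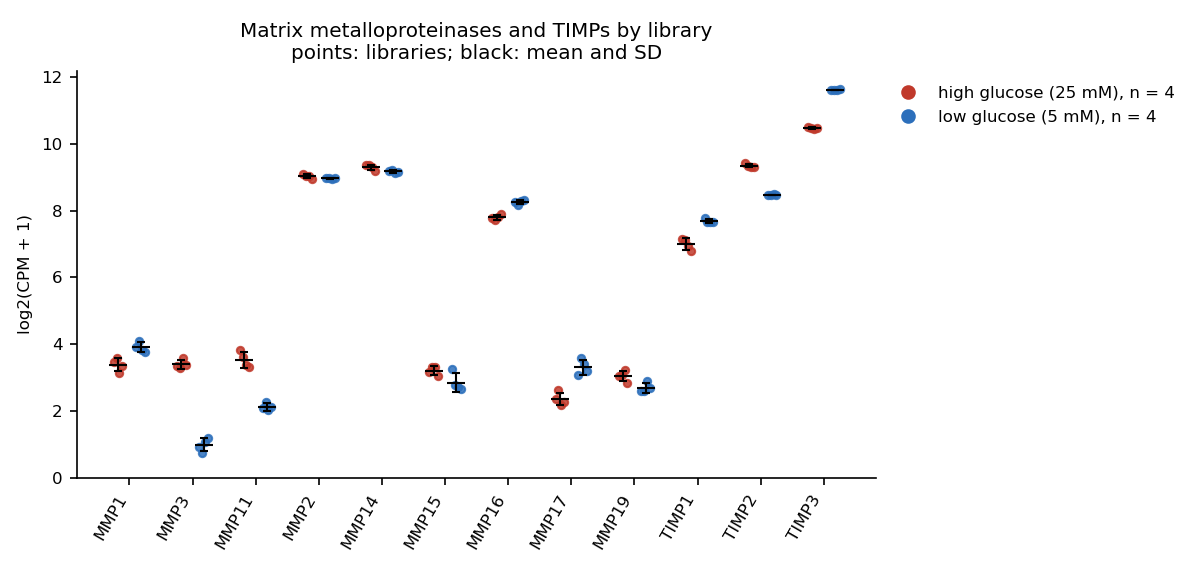
Expression as log2(CPM + 1) (y axis) of 9 MMP and 3 TIMP genes (x axis) in the 8 libraries, with high glucose left of low glucose, each point a library and black marks for the mean and SD of 4 libraries. MMP3 averaged 9.52 CPM in high and 0.985 CPM in low glucose and TIMP3 1417 and 3128 CPM, while the groups overlapped for MMP2, MMP14, MMP15 and MMP19.

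Each measured inhibitor changed, as did 72.9% of all genes, and TIMP2 moved against TIMP1 and TIMP3. TIMP3, which is bound to the matrix and inhibits ADAM17 and ADAMTS enzymes as well as MMPs, lies on chromosome 22 from 32801705 to 32863041. It had 1447, 1404, 1397 and 1421 CPM in high glucose, against 3134, 3108, 3113 and 3157 CPM in low glucose. The libraries of a group differed by little and TIMP3 was 2.21-fold lower (log2 fold change -1.14 ± 0.0308, adjusted p = 7.20e-14). TIMP1, a broad secreted inhibitor, had 142, 138, 121 and 109 CPM in high glucose, against 220.2, 201, 203 and 199 CPM in low glucose. It was 1.61-fold lower without overlap (-0.69 ± 0.0676, adjusted p = 1.73e-07). TIMP2, which inhibits MMP2 and also links it to MMP14 for activation, had 682, 645, 635 and 628 CPM in high glucose, against 352, 353, 357 and 352 CPM in low glucose. It was 1.83-fold higher (0.87 ± 0.0337, adjusted p = 3.61e-12). TIMP4 had at most 2 counts in any library and was not tested.

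Per kilobase of transcript, TIMP3 was the most abundant inhibitor in both groups, at 308 ± 4.87 CPM in high and 680.4 ± 4.91 CPM in low glucose. TIMP2 stood at 177 ± 6.52 CPM in high and 96.8 ± 0.566 CPM in low glucose, and TIMP1 at 166 ± 19.5 and 268 ± 12.7 CPM, in the same order of groups. Per kilobase, TIMP1 was therefore above TIMP2 in low glucose, while in high glucose the levels of TIMP1 and TIMP2 lay within the spread of TIMP1. This order rests on canonical transcripts of 769 bases for TIMP1 and 3652 for TIMP2. In CPM, TIMP2 was above TIMP1 in both groups, with means of 647 against 127 CPM in high and 354 against 206 CPM in low glucose. The ratio of TIMP2 to TIMP3 within a library, which a single scaling factor per library cannot alter, was 0.557 to 0.593 in high and 0.141 to 0.144 in low glucose (4.04-fold higher on average). TIMP1 and TIMP3 lie within the synapsin genes SYN1 and SYN3, which reached at most 0.590 CPM in any library.

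The ADAM sheddases were divided as well, with ADAM10 higher and ADAM17 lower. ADAM10, the main sheddase of NOTCH receptors and of several growth factor ligands, lies on chromosome 15 from 58588809 to 58749707 and had 154, 147, 162 and 163 CPM in high glucose, against 67.2, 64.2, 71.0 and 73.7 CPM in low glucose. It was 2.27-fold higher (log2 fold change 1.17 ± 0.0510, adjusted p = 1.31e-11). ADAM17, the sheddase of TNF and of further ligands of the epidermal growth factor receptor, had 73.0, 76.8, 79.6 and 78.1 CPM in high glucose, against 113, 109, 122 and 129.7 CPM in low glucose. It fell without overlap (-0.62 ± 0.0542, adjusted p = 5.00e-08), and the overlapping gene IAH1 fell as well, with means of 28.0 CPM in high and 49.0 CPM in low glucose (-0.79, adjusted p = 1.79e-08). Per kilobase of transcript the ratio of ADAM10 to ADAM17 within a library was 0.755 to 0.831 in high and 0.224 to 0.233 in low glucose, 3.502-fold higher on average. The level of this ratio rests on canonical transcripts of 11158 bases for ADAM10 and 4391 for ADAM17, while its fold change does not. In CPM, ADAM10 was above ADAM17 in every high-glucose library.

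Further sheddases rose. ADAM9, which also binds integrins, had 973, 1003, 1039 and 1060.4 CPM in high glucose, against 461, 438, 461 and 464 CPM in low glucose. With 2.23-fold higher values (1.16 ± 0.0359, adjusted p = 3.13e-13) it was the most abundant ADAM per kilobase in both groups, at 248 ± 9.45 CPM in high and 111 ± 2.91 CPM in low glucose. ADAM12, a tumor-associated ADAM named meltrin for its role in muscle cell fusion, had 179.9, 179.7, 189 and 188 CPM in high glucose, against 81.4, 71.7, 80.2 and 78.7 CPM in low glucose (1.23 ± 0.0458, adjusted p = 2.28e-12). ADAM19, another meltrin, averaged 52.3 ± 4.04 CPM in high and 26.2 ± 0.462 CPM in low glucose (0.96, adjusted p = 1.44e-09). ADAM33 had 9.27, 7.22, 8.02 and 5.40 CPM in high glucose, against 2.88, 3.49, 3.03 and 2.71 CPM in low glucose, again without overlap (1.06 ± 0.150, adjusted p = 1.16e-05). The annotation of ADAM9 overlaps TM2D2, which rose as well, with means of 62.4 CPM in high and 42.5 CPM in low glucose (0.54, adjusted p = 2.73e-07). Besides ADAM17, ADAM15 (metargidin) fell, to 62.7 ± 10.8 CPM in high glucose, against 104 ± 4.58 CPM in low glucose (-0.73, adjusted p = 2.76e-06). Among 7 tested sheddases 5 rose and 2 fell, against 35.7% and 37.2% of all genes.

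Of the 4 ADAMs that lack a working catalytic site and act in cell adhesion, 3 passed as higher, against 35.7% of all genes, among them ADAM32 at few counts. ADAM23, a receptor of the neuronal protein LGI1, had 28.5, 25.2, 28.2 and 34.0 CPM in high glucose, against 10.7, 10.5, 8.02 and 10.02 CPM in low glucose. It was 2.95-fold higher without overlap (1.47 ± 0.107, adjusted p = 5.44e-09). ADAM22, also a receptor of LGI1, passed as higher at 3.36 ± 0.488 and 0.930 ± 0.190 CPM in high and low glucose, and ADAM32 at 2.18 ± 0.431 and 0.221 ± 0.150 CPM (adjusted p = 2.64e-06 and 1.02e-06 in that order). ADAM32 met the filter only through high glucose, with 2, 1, 4 and 1 counts in low glucose. Its log2 fold change was 2.91 with a pseudocount of 0.1 CPM and 0.46 with 5 CPM. ADAM11 was at 1.38 ± 0.330 CPM in high and 1.54 ± 0.455 CPM in low glucose and did not pass (-0.09, 95% interval -0.44 to 0.27, adjusted p = 0.645).

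Of the 5 proteoglycan-cutting ADAMTS enzymes tested, 4 passed as higher in high glucose, against 35.7% of all genes, among them ADAMTS9 at few counts. ADAMTS5 (aggrecanase 2), on chromosome 21 from 26917922 to 26967088, had 397, 383, 401 and 396 CPM in high glucose, against 94.7, 101, 95.8 and 104 CPM in low glucose. At 3.99-fold higher (log2 fold change 1.99 ± 0.0393, adjusted p = 2.83e-15) it had the smallest adjusted p of all members. ADAMTS1, its neighbour on chromosome 21 from 26835755 to 26845409 and an enzyme that cuts versican, had 782, 764, 751 and 755 CPM in high glucose, against 431, 415, 413 and 434 CPM in low glucose. It was 1.80-fold higher (0.85 ± 0.0323, adjusted p = 2.96e-12), so both genes of this pair rose. ADAMTS4 (aggrecanase 1) had 18.8, 18.2, 17.8 and 15.2 CPM in high glucose, against 7.31, 10.3, 9.21 and 8.73 CPM in low glucose (0.91 ± 0.110, adjusted p = 2.11e-06). ADAMTS9 passed as higher at 2.11 ± 0.132 CPM in high and 0.223 ± 0.234 CPM in low glucose. It met the filter only through high glucose, with 0, 1, 5 and 2 counts in low glucose. Its log2 fold change was 3.09 with a pseudocount of 0.1 CPM and 0.45 with 5 CPM. ADAMTS15 did not pass at 5.00 ± 0.367 and 4.10 ± 0.458 CPM (adjusted p = 0.0969), though it did with each library set to the same total (0.43) and without a trend in the variance prior (0.24), with adjusted p of 0.00467 to 0.438 over all alternatives. The ratio of ADAMTS5 to its inhibitor TIMP3, per kilobase within a library, was 0.130 to 0.137 in high and 0.0144 to 0.0158 in low glucose (8.80-fold higher on average).

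All 3 procollagen N-proteinases, which remove the amino-terminal propeptide from fibrillar procollagens, rose, as did 35.7% of all genes. ADAMTS14 had 35.0, 35.9, 35.4 and 29.7 CPM in high glucose, against 6.97, 7.31, 7.80 and 8.73 CPM in low glucose. It was 4.42-fold higher without overlap (2.01 ± 0.0928, adjusted p = 2.63e-11). ADAMTS3, known also for processing of the lymphatic growth factor VEGFC, had 5.46, 5.51, 5.06 and 6.57 CPM in high glucose, against 0.553, 0.900, 0.325 and 0.236 CPM in low glucose. Its log2 fold change (2.16 ± 0.160, adjusted p = 6.57e-09) rests on 2 to 8 counts per low-glucose library, and was 3.37 with a pseudocount of 0.1 CPM and 0.95 with 5 CPM. ADAMTS2, by level the main enzyme of the 3 in both groups at 11.5 ± 0.897 and 9.34 ± 0.360 CPM per kilobase in high and low glucose, changed least. Its mean was 77.9 ± 6.08 CPM in high and 63.4 ± 2.44 CPM in low glucose (0.29, adjusted p = 3.27e-04).

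Of the remaining ADAMTS genes 1 rose and 2 fell among 5 tested, against 35.7% and 37.2% of all genes. ADAMTS6, which acts on fibrillin-rich microfibrils, had 16.8, 15.2, 17.5 and 16.4 CPM in high glucose, against 41.1, 44.9, 48.0 and 41.5 CPM in low glucose. It was 2.66-fold lower (-1.36 ± 0.0724, adjusted p = 1.34e-10). ADAMTS7, which cuts cartilage oligomeric matrix protein (COMP), had 6.24, 5.81, 5.35 and 4.50 CPM in high glucose, against 14.8, 15.6, 13.9 and 15.0 CPM in low glucose. It was 2.71-fold lower (-1.30 ± 0.110, adjusted p = 3.54e-08), with the caution that ADAMTS7 has closely similar pseudogenes. ADAMTS12, its closest relative and also an enzyme of COMP, had 281, 278, 274 and 274 CPM in high glucose, against 82.0, 75.6, 82.5 and 84.5 CPM in low glucose. It moved the other way and was 3.41-fold higher (1.76 ± 0.0410, adjusted p = 1.70e-14). COMP itself was at 0 in all 8 libraries. ADAMTS10 and ADAMTS16 did not pass (adjusted p = 0.0654 and 0.112), at means of 0.489 and 3.37 CPM in high and 1.02 and 4.31 CPM in low glucose. Each passed as lower in 3 and 2 of the alternatives, in that order. These were quantile normalization for both, the replicate block and the fit without low-glucose replicate 1 for ADAMTS10 and the fit without high-glucose replicate 3 for ADAMTS16.

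**Figure D3:**
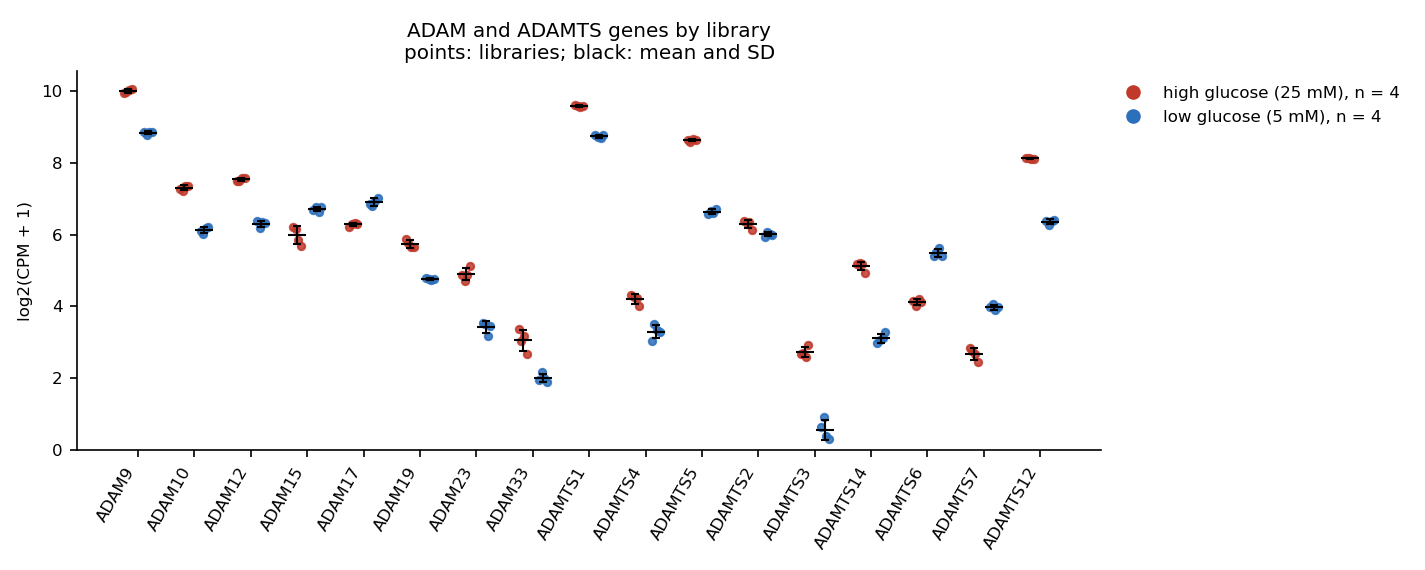
Expression as log2(CPM + 1) (y axis) of 8 ADAM and 9 ADAMTS genes (x axis) in the 8 libraries, with high glucose left of low glucose, each point a library and black marks for the mean and SD of 4 libraries. All 17 are called members, and the groups do not overlap for any of them, as for 66.7% of all genes. ADAM11, ADAMTS10, ADAMTS15 and ADAMTS16, which overlapped and were not called, are not shown. Of the 17, ADAM15, ADAM17, ADAMTS6 and ADAMTS7 are the ones lower in high glucose.

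The ADAMTS-like proteins, which bind microfibrils without cutting them, fell or did not pass. ADAMTSL1 fell to 68.2 ± 1.47 CPM in high glucose, against 112 ± 4.87 CPM in low glucose (-0.71, adjusted p = 8.59e-10). ADAMTSL5 fell to 12.7 ± 1.01 CPM, against 18.6 ± 1.15 CPM (-0.51, adjusted p = 7.41e-05). ADAMTSL4, known from inherited lens dislocation, was at 4.19 ± 0.585 CPM in high and 4.69 ± 0.936 CPM in low glucose (-0.13, 95% interval -0.44 to 0.19, adjusted p = 0.453).

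**Figure D4:**
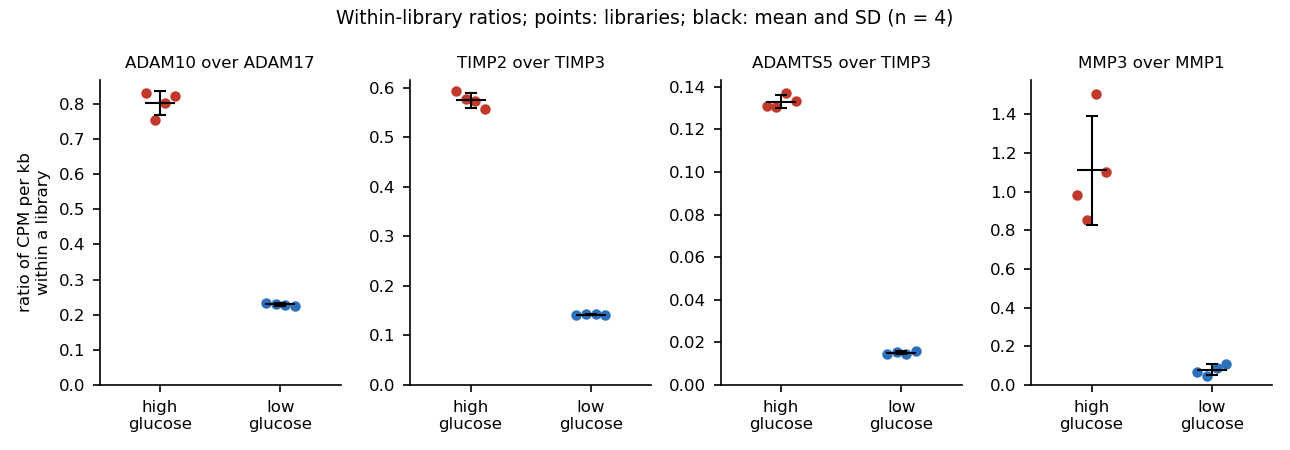
Ratio of 2 genes within each library (y axes from 0, CPM per kilobase of transcript over CPM per kilobase) in high and low glucose (x axes), with points for libraries and black marks for the mean and SD of 4. ADAM10 over ADAM17 was 0.755 to 0.831 in high and 0.224 to 0.233 in low glucose. Each of the 4 ratios sets a gene that rose without overlap over a gene that fell without overlap, so none could overlap. Among ratios not shown, MMP14 over TIMP2 was lower, at 0.911 to 0.998 in high and 1.55 to 1.66 in low glucose. MMP2 over MMP14, also not shown, overlapped at 0.842 to 0.891 in high and 0.885 to 0.928 in low glucose.

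Genes that activate, restrain or carry these proteases changed in both directions, as did genes in general, of which 72.9% were called (35.7% higher and 37.2% lower). Of 15 genes of activating proteases and their inhibitors 12 were tested, 6 rose and 3 fell. The urokinase pathway, which makes plasmin and through it activates pro-MMPs, had higher PLAU (the protease, 102 ± 4.62 CPM in high and 46.1 ± 5.37 CPM in low glucose, log2 fold change 1.14) and PLAUR (its receptor, 100.2 ± 7.66 and 49.9 ± 0.915 CPM, 0.99). SERPINB2, an inhibitor of urokinase, rose to 75.6 ± 4.17 CPM in high glucose, against 27.0 ± 2.42 CPM in low glucose (1.46). The adjusted p of these 3 genes was 2.52e-11 to 9.36e-10. RECK, a membrane-bound inhibitor of MMPs and ADAM10 named here after its values were seen, rose to 26.6 ± 1.99 CPM in high glucose, against 10.1 ± 0.925 CPM in low glucose (1.31, adjusted p = 2.52e-09).

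Of the 9 carriers of ADAM10 and ADAM17, 7 were tested, 4 rose and 2 fell. TSPAN14 and TSPAN17, tetraspanins that bring ADAM10 to the cell surface, rose to 64.6 ± 3.15 CPM in high glucose, against 30.3 ± 1.88 CPM in low glucose (1.07), and to 65.9 ± 6.37 CPM, against 38.4 ± 1.26 CPM (0.76). RHBDF2, the iRhom that carries ADAM17 out of the endoplasmic reticulum, fell to 12.7 ± 2.53 CPM, against 25.1 ± 0.960 CPM (-0.94), and its partner FRMD8 rose to 24.1 ± 3.19 CPM, against 13.8 ± 0.496 CPM (0.76). Of 10 matrix substrates and partners of ADAMTS proteins 7 were tested, 3 rose and 2 fell. The proteoglycan versican (VCAN, 0.38) rose to 672 ± 28.0 CPM in high glucose, against 517 ± 22.5 CPM in low glucose. FBN2 (0.70) and THBS1 (1.73) also rose and FBN1, the main fibrillin of microfibrils, fell to 916 ± 22.4 CPM, against 1532 ± 44.04 CPM (-0.74). All 8 of these genes passed with adjusted p of 2.22e-15 to 2.18e-06.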

How the data were processed

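Hs578T cells were profiled by RNA-Seq after 48 hours in 25 mM or 5 mM glucose, with 4 libraries per group by the treatment label. The authors deposited normalized signal per gene, taken as CPM with TMM factors, since the submitters' processing notes name edgeR (and hg38), the study's methods describe such values for other cultured lines, and the columns sum to 1017015 to 1229021. For these files the aligner and counter were not named (not given in the sources used here). Dividing by the value of 1 read gave whole numbers for only 71.2 to 73.8% of values, so no count model was run. Genes reaching 0.5 CPM in 2 or more libraries entered limma 3.58.1 (R 4.3.3, trended prior, high minus low glucose) as log2(CPM + 1), with Benjamini-Hochberg adjustment over 15570 genes. A log2 fold change on this scale understates the change of low genes. Separate cultures are not stated, so p values reflect only how far these libraries spread, which may be technical. Every pair of libraries differed beyond sampling noise (chi-square per gene of 1.62 or more). Levels per kilobase used the canonical GENCODE transcript of each of the 59 members. ADAMs without a catalytic site were separated by textbook knowledge, since no protein table was used here. Positions are from RefSeq (GRCh38.p14) for all 59. The members and lists were chosen with earlier results of these data known. Named in the text are members past the FDR with a mean of at least 5 CPM in 1 group, fixed members and up to 4 called genes of each further list by smallest p, besides RECK and members named for context, and some genes are not reported here. The fit was tested on simulated data. Counts cover counting error only. Alternatives changed the pseudocount, filter, scaling, variance prior, block and libraries.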

Additional observations from a re-analysis of the deposited data

Results flagged for a closer look

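In 4 of 84 groups of 4 libraries, the values of a tested member had 1 library far from the other 3, and chance gives about 1 in 20 such groups (4.20 here). ADAM9 was 438 CPM in low-glucose replicate 2, against 461 to 464 CPM in the other low-glucose libraries. ADAMTS14 was 29.7 CPM in high-glucose replicate 4, against 35.0 to 35.9 CPM in the others. MMP10 was 0.173 CPM in high-glucose replicate 1 and 0 in the others, and MMP15 was 8.52 CPM in low-glucose replicate 1, against 5.31 to 5.85 CPM. No cause of these values was tested.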

How the results depend on the processing

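Counts of members called stayed within 1.5 times under all 16 alternatives, at 20 to 26 rising and 11 to 14 falling members, and 9968 to 11728 genes were called in all. No call of a member changed direction. Of 662 values of single members under the alternatives, 641 kept their side of the threshold, 8 lost and 13 gained a call. The median of the members was 0.19 with a pseudocount of 5 CPM and 0.083 with no filter, when 56 members were tested, and 0.56 with each library set to the same total, when all genes moved by 0.20, against 0.36 as reported. Rises and falls of at least 2-fold numbered 15 and 5 members with a pseudocount of 0.1 CPM and 8 and 2 with 5 CPM, against 14 and 3. With each library left out in turn it was 0.31 to 0.40. Libraries with the same replicate number correlated in their deviations from the group mean at r = -0.03 to 0.11 across genes. Values this weak cannot decide whether the numbers pair the libraries. With a replicate block 23 members rose and 13 fell, and 11494 genes were called in all, against 11350 as reported. Depth limits the members at a few counts: 3 counts are 0.260 to 0.354 CPM, and changes of members under about 1 CPM rest on single reads.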

Other observations

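Of the 17 members that were not tested, 3 (ADAMTS20, ADAMTSL3 and MMP26) were at 0 in all 8 libraries, which allows up to 0.354 CPM in any library by counting error alone, and the others reached at most 0.553 CPM. ADAMTS18 had 1, 1, 1 and 3 counts in the high-glucose libraries and 0 in each low-glucose library, too few to test.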
